A study of Mus musculus with 12 samples.

Results

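PGAM2 K176R/K176R mutant C2C12 cells and wild-type (WT) C2C12 cells were compared before differentiation, using 6 of the 12 RNA sequencing libraries of the series. These 6 are all the libraries labelled day 0 (d0), 3 WT and 3 knock-in (KI), and the other 6 are the same genotypes at differentiation day 4 (d4). C2C12 is a mouse myoblast line that proliferates in serum-rich growth medium and forms multinucleated myotubes after the serum is lowered, and both genotypes were harvested at d0 from growth medium. KI cells carry the K176R substitution in both copies of Pgam2, made by CRISPR-Cas9 with a repair template, while WT cells carry no edit. The study describes a single homozygous C2C12 clone, so the substitution and any other property of that clone cannot be told apart. The labels number the 3 libraries of each genotype without saying whether separate cultures were grown, so each p-value measures the spread between these libraries, which may be technical.

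Pgam2 encodes the muscle isoform of phosphoglycerate mutase, the glycolytic enzyme that turns 3-phosphoglycerate into 2-phosphoglycerate. The study names K176 as an acceptor site for the small ubiquitin-like modifier SUMO. Myoblasts are kept in the lineage by the transcription factors PAX7, MYF5 and MYOD1, and leave the cell cycle when myogenin (Myog) and, after it, the sarcomere genes are switched on. In GRCm38 (mm10), the edited lysine is encoded in exon 2 of 3 of Pgam2 (ENSMUSG00000020475), on the minus strand. The edited place is shown from the GENCODE M21 transcript, chr11:5803036-5803098, 5′ to 3′ along the coding strand, with the codon of that lysine in capitals.
Pgam2: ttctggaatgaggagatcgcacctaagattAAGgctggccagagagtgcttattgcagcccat

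Expression of the targeted gene was low in d0 cells of both genotypes. Pgam2 was measured at 2.64, 2.34 and 2.69 CPM (reads per unit of TMM-scaled library size) in WT libraries 1 to 3 and at 3.93, 5.69 and 3.32 CPM in KI libraries 1 to 3. All 3 KI libraries lay above the 3 WT libraries, but the log2 fold change of 0.76 ± 0.23 (SE; edgeR, adjusted p = 0.0193) did not reach the threshold of 1. Since the substitution leaves the transcript in place, these levels do not check the labels. Pgam1, the isoform of most tissues, stood at 384, 357 and 273 CPM in WT and 455, 594 and 540.2 CPM in KI libraries. Its log2 fold change was 0.65 ± 0.14 (adjusted p = 0.00271), also below the threshold. Per length, Pgam1 exceeded Pgam2 in both genotypes, at 182 against 3.01 FPKM in WT and 290.04 against 5.14 FPKM in KI cells (means of 3 libraries).

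The libraries held 17695434 to 21412560 reads in 23954 listed genes, of which 13920 passed edgeR's filter on low counts and were tested. The first principal component took 83.4% of the variance and separated the genotypes, and log2 CPM correlated at 0.990 or above within a genotype and at 0.943 or below between them. KI replicate 3 was noted beforehand for RNA that lacks a poly(A) tail, which libraries made from poly(A) RNA should hold little of. Over all 553 listed genes of that kind, however, KI replicate 3 had the lowest share of reads, 0.102%, against 0.147% and 0.345% in KI replicates 1 and 2 and 0.154% to 0.205% in WT. That total was set by 1 ribosomal RNA gene, CT010467.1, at 1919, 1687 and 1360 CPM in WT and 1324, 3471 and 569.5 CPM in KI libraries. Without this gene the share was 0.0462% in KI replicate 3, 0.0116% and 0.0124% in the other KI libraries and 0.0125% to 0.0144% in WT.

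KI replicate 3 stood apart in a small set of genes. The 7SK RNA gene Rn7sk, whose product holds back the elongation factor P-TEFb, was at 3.7, 0.689 and 1.05 CPM in WT and 1.16, 8.0 and 225 CPM in KI libraries. Replication-dependent histone genes, whose mRNAs end in a stem-loop in place of a poly(A) tail, took 0.0172% of its reads and 0.00478% to 0.00777% in the other 5 libraries. The long noncoding RNA gene Gm26917 was at 316, 219 and 267 CPM in WT and 261, 430.1 and 3625 CPM in KI libraries. Of the tested genes, 38 were at least 2-fold above both other KI libraries in KI replicate 3, of which 16 were histone genes, and 19 were at least 2-fold below. The same count gave 10 to 43 genes above and 12 to 41 below for each of the other 5 libraries, with 0 histone genes. The share of reads in non-polyadenylated RNA was not called different between genotypes (exact permutation test, two-sided, p = 1, where 3 against 3 libraries cannot go below 0.1), and the difference of the means, KI minus WT, was 0.0171 percentage points, or -0.0566 without KI replicate 2.

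At d0, 1282 genes were lower and 422 higher in KI than in WT cells, taking genes whose adjusted p was below 0.05 and whose log2 fold change exceeded 1 in size. That is 9.21% and 3.03% of the 13920 tested genes, or 12.2% in both directions. Large changes were mostly decreases: 356 genes were lower and 45 higher by more than 3 on the log2 scale, and 150 were lower and 10 higher by more than 5. The KI and WT libraries did not overlap for 1260 of the lower and 408 of the higher genes. Such separation goes largely with passing both thresholds, and for genes named by fold change it was a condition of naming. Here and below it describes the levels and is no separate evidence. Of the called genes, 1127 lower and 370 higher genes were protein-coding, 51 and 21 were annotated as lincRNA, and 31 and 9 as antisense. The median log2 fold change of all tested genes was -0.02.

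**Figure D1:**
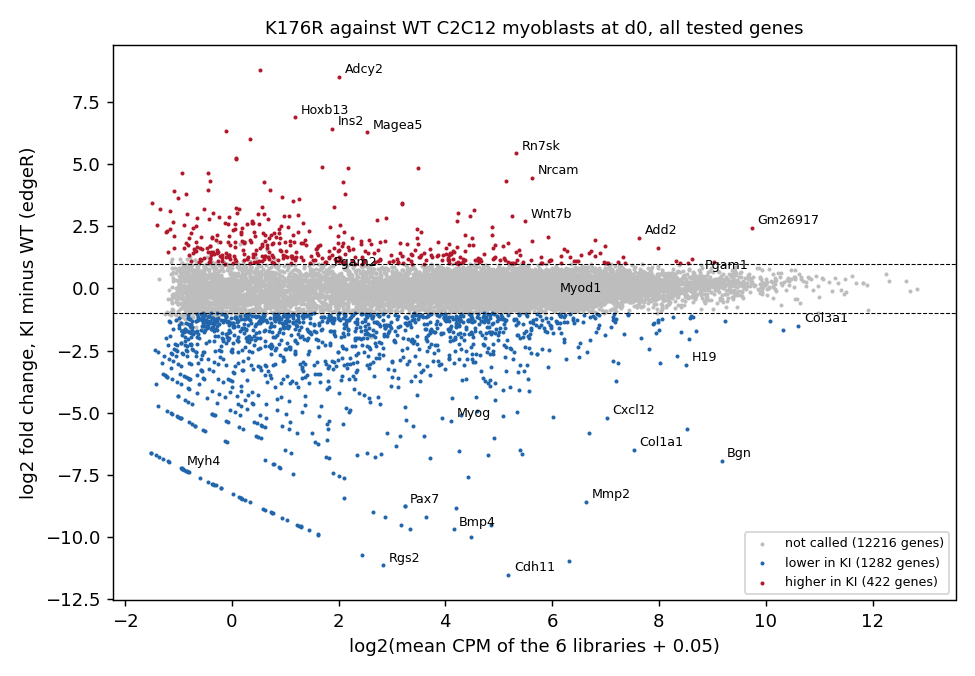
Mean level of each tested gene in the 6 d0 libraries (x axis, log2 of CPM + 0.05) against its edgeR log2 fold change, KI minus WT (y axis), with 1282 genes lower in KI in blue and 422 higher in red. Dashed lines mark a log2 fold change of 1 in each direction, and the diagonal rows at the lower left are genes with hardly any KI reads, whose fitted value follows the WT level.

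Without KI replicate 3, 1311 genes were lower (9.14% of 14347 tested) and 406 higher (2.83%). Of the calls made with all libraries, 1174 of 1282 lower genes and 371 of 422 higher genes were called again. Most of the 51 higher genes that were lost lay near the threshold, and 13 of them had a log2 fold change above 1.5 with all libraries. The losses with the largest fold changes were genes of the set in which KI replicate 3 stood apart. Rn7sk went from 5.44 ± 1.46 (adjusted p = 0.0107) to 1.36 (adjusted p = 0.15), and Gm26917 from 2.43 to 0.38 (adjusted p = 0.02 and 0.17). The linker histone gene Hist1h1e went from 3.67 to 1.02, and the H4 gene Hist1h4h from 2.65 to 0.15. Of 53 tested genes of non-polyadenylated RNA, 8 were higher and 0 lower with all libraries, and 2 of 57 were higher and 1 lower without KI replicate 3. Gm27605 was 1 of the 8 and did not rest on that library, with 0 CPM in the 3 WT libraries and 2.88, 2.95 and 2.52 CPM in the KI libraries.

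**Figure D2:**
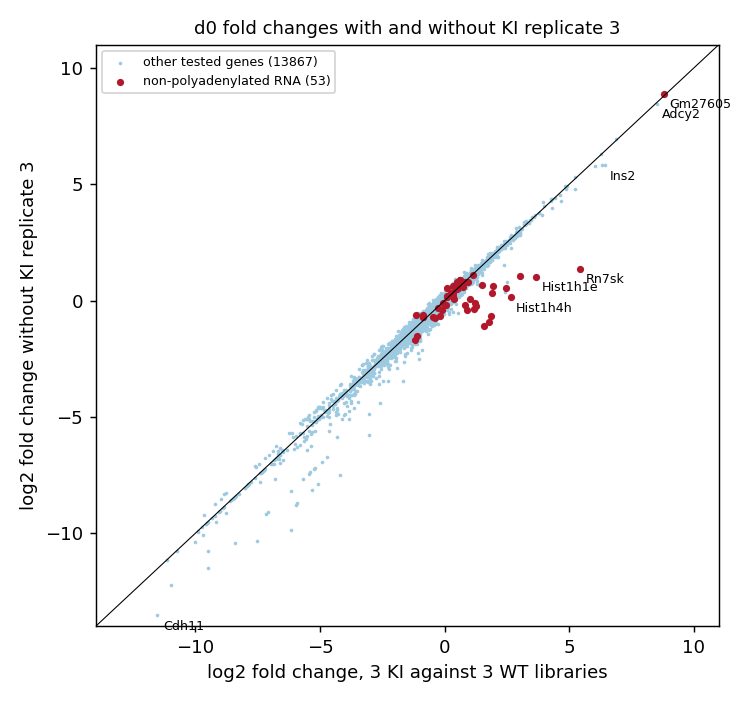
Log2 fold change of each tested gene with all 6 libraries (x axis) and without KI replicate 3 (y axis), with genes of non-polyadenylated RNA in red and the line of equal values in black. The axes share 5 libraries, and Rn7sk, at 5.44 on the x axis and 1.36 on the y axis, and histone genes fall below it.

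Transcripts of 9 myoblast markers were read in both genotypes. The intermediate filament gene Des was at 1403, 1212 and 1132 CPM in WT and 1294, 1738 and 1565 CPM in KI libraries, and Myod1, the transcription factor that commits cells to muscle, at 79, 73.8 and 63.9 CPM in WT and 52.7, 66.5 and 59.8 CPM in KI libraries. The M-cadherin gene Cdh15 was at 287, 258 and 244 CPM in WT and 267, 361 and 311 CPM in KI libraries. Of these 9 markers, 7 did not pass both thresholds, Vcam1 (a cell adhesion receptor) was lower with a log2 fold change of -1.06 ± 0.09, and Msc (musculin, a repressor of myogenic factors) higher with 1.52 ± 0.20. Their summed level was 2877 to 3306 CPM in WT and 3141 to 3959 CPM in KI libraries. Fibroblast markers summed to 1893 to 2012 CPM in WT and 598 to 699 CPM in KI libraries, and smooth muscle markers to 778 to 1035 and 316 to 389.7 CPM. The fibroblast sum came mostly from Col1a2 and, in WT, Col1a1, and the smooth muscle sum mostly from Acta2. By single genes, 4 of 5 tested fibroblast markers and 3 of 4 tested smooth muscle markers were lower, and 0 higher. Endothelial markers stayed under 1.4 CPM in every library, with 0 KI reads of Pecam1 and Cdh5. In bulk libraries, fewer cells of a kind and less RNA per cell cannot be told apart.

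Pax7, which marks muscle stem cells and their undifferentiated progeny, was almost without reads in KI cells. Its level was 20.4, 17.6 and 18.2 CPM in the WT libraries and 0.111, 0 and 0 CPM in the KI libraries, 1207 against 2 reads in all, a ratio of 526 per read sequenced (95% exact counting interval 145 to 4344). The log2 fold change was -8.77 ± 0.36 (adjusted p = 6.82e-09). Pax7 belongs to the satellite cell and myoblast surface genes, of which 8 of 24 tested (33.3%) were lower and 1 higher, with a median of -0.64. Over all tested genes, 9.21% were lower and 3.03% higher, the shares beside which this and each later list count stands. Myf5, the other early myogenic factor, was at 37.4, 45.6 and 60.4 CPM in WT and 42.5, 28 and 39 CPM in KI libraries, where the groups overlapped and the test gave -0.39 ± 0.18 (adjusted p = 0.104). Ranbp3l, a nuclear export factor that restrains BMP signalling, fell from 19.6, 29.9 and 24.9 CPM in the WT to 0, 0.0527 and 0.0572 CPM in the KI libraries (log2 fold change -9.17 ± 0.37, adjusted p = 6.57e-09). Among all myogenic transcription factors and cofactors, 11 of 34 tested members (32.4%) were lower and 4 (11.8%) higher, with a median log2 fold change of -0.50. The lower ones included the phosphatase and coactivator Eya4 (-3.59).

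Myogenin and the sarcomere genes were low in KI cells already in growth medium. Myog was at 39, 32.5 and 29 CPM in WT and 0.609, 0.685 and 1.2 CPM in KI libraries, 40.2-fold lower in the mean (log2 fold change -5.33 ± 0.22, adjusted p = 6.82e-09). For the sarcomere list, 37 of 50 tested members were lower and 1 higher, with a median log2 fold change of -2.45, beside -0.02 for all tested genes. Without KI replicate 3 the count was 40 lower and 1 higher of 53 tested. All 6 markers of myotubes were lower, and their summed level was 143 to 202 CPM in WT and 15.3 to 18.6 CPM in KI libraries. The part of already differentiating cells among the WT cells in these results was not tested. Each of these lists was drawn up with results of this study known, so its count describes the genes and is no independent evidence.

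Among the myosins, the embryonic heavy chain gene Myh3 was at 31, 34.3 and 24 CPM in WT and 1.38, 0.474 and 0.515 CPM in KI libraries. Myh1, a fast adult heavy chain, was at 6.97, 6.53 and 7.12 CPM in WT libraries, with 3 reads in all KI libraries together against 443 (ratio 129, 95% exact counting interval 43.7 to 626). Myh4, another fast heavy chain, gave 0.769, 1.42 and 0.639 CPM in the WT libraries and no read in KI. Each of these 3 genes had KI libraries wholly below the WT libraries. The cardiac actin gene Actc1 and nebulin (Neb), which lines the thin filament, had log2 fold changes of -4.39 ± 0.26 and -4.30 ± 0.21. Skeletal actin (Acta1), named here after its value was seen, was at 78.6, 59.2 and 52.8 CPM in WT and 6.09, 5.74 and 7.21 CPM in KI libraries (log2 fold change -3.32 ± 0.17). Some members stayed near WT levels: titin (Ttn) had a log2 fold change of -0.48 ± 0.08 and alpha-actinin 3 (Actn3) of 0.50 ± 0.13, both short of the threshold. The single higher member, Xirp1, encodes an actin-binding protein of developing myofibrils and was at 17.7, 17.1 and 12.4 CPM in WT and 56, 58.3 and 53.4 CPM in KI libraries. Cav3, the muscle caveolin, had too few reads to be tested, at 0.625, 0.414 and 0.137 CPM in WT and 0.0554, 0 and 0 CPM in KI libraries.

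The fusion genes followed in the same direction for 7 of 21 tested members (33.3%), with 0 higher. Mymk (myomaker), a membrane protein that myoblasts need to fuse, was at 27.9, 21.3 and 21.2 CPM in WT and 6.04, 6.58 and 6.98 CPM in KI libraries (log2 fold change -1.84 ± 0.15, adjusted p = 1.75e-06). Its partner Mymx, below the level set for named genes and chosen after its value was seen, was at 4.95, 3.77 and 3.56 CPM in WT and 0.0554, 0.158 and 0.0572 CPM in KI libraries. The metalloprotease gene Adam12 (-3.58) and the co-receptor genes Cdon (-1.14) and Boc (-1.20), which pass on cell contacts during myogenesis, were also lower. No KI library reached the lowest WT library in any of the genes of this paragraph.

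Promoters of this group are shown because myogenic factors such as MYOD1 and myogenin bind E-boxes, the letters CANNTG. A site that matches this pattern on either strand matches it on both. The windows run from 250 bases before to 50 bases after the RefSeq start (GRCm38.p6), at chr1:134289754-134290053 on the plus strand for Myog and chr11:67237562-67237861 on the plus strand for Myh4, with CANNTG in capitals.
Myog: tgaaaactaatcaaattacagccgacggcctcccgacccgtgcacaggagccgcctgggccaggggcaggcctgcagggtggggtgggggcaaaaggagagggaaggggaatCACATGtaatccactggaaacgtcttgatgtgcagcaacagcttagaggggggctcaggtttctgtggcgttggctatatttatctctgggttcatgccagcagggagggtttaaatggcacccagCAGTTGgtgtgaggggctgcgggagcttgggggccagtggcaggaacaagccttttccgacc
Myh4: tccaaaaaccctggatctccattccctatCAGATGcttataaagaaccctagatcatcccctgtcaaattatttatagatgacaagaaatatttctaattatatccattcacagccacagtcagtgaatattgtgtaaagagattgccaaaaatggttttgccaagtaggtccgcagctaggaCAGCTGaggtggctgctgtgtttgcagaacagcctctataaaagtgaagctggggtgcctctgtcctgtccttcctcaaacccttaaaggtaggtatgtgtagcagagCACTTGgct
Myog has 2 such matches and Myh4 has 3. Of the 37 lower sarcomere genes, 31 had a window in the table, and 27 of these (87.1%) held at least 1 CANNTG and 18 (58.1%) at least 2. Over all 32851 windows of this length, 72.3% held at least 1 and 39.6% at least 2. Among tested genes with a window the shares were 62.4% and 27.2%. They were 68.9% and 32.8% for genes called lower, and 72.9% and 39.2% for genes called higher. A match is a run of letters and not a measured binding site.

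The decreases with the largest fold changes were of genes well expressed in WT cells and with almost no KI read. Cdh11, a mesenchymal cadherin, was at 59.2, 78.3 and 80.1 CPM in WT and 0, 0 and 0.0572 CPM in KI libraries, 4692 against 1 read (ratio 4086, 95% exact counting interval 733 to 161410), with a log2 fold change of -11.52 ± 0.33 (adjusted p = 5.55e-10). The scavenger receptor gene Colec12 was at 128, 171 and 179 CPM in WT and 0, 0.0527 and 0.172 CPM in KI libraries (log2 fold change -10.96 ± 0.30). Mmp2, a gelatinase that cuts basement membrane collagen, was at 201, 185 and 209.8 CPM in WT and 0.277, 0.737 and 0.515 CPM in KI libraries. In these 3 genes no KI library exceeded 1 CPM and no WT library fell below 50. The largest fold changes were named among genes whose libraries did not overlap, so this separation is no further evidence.

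In 5 tested genes with a mean of at least 5 CPM in WT, no read was seen in any KI library, and no gene met the reverse condition. Rgs2, which shuts off G-protein signalling, had 11.2, 14 and 17.3 CPM in WT, 918 reads against 0, or at least 266-fold lower when 3 reads are taken as the floor over the 3 KI libraries. Gas6, the ligand of the TAM receptor kinases, had 11.2, 8.78 and 12.1 CPM and was at least 199.99-fold lower by the same floor. The neuronal transport adaptor gene Fez1, the phosphodiesterase gene Pde7b and the glutamate transporter gene Slc1a6 were at least 113-fold, 99.8-fold and 112-fold lower. Among all called genes, 126 of 1282 lower genes had at most 3 reads over the 3 KI libraries and 47 had none. Of 422 higher genes, 11 had at most 3 reads over the 3 WT libraries and 1 had none. Among called genes with at least 5 CPM in the higher genotype, 21 of 662 lower and 1 of 200 higher genes had at most 3 reads in the other.

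Promoters of a lost and a gained gene are shown for their content of CG dinucleotides (in capitals), the letters at which DNA is methylated in mammals. They are those of Rgs2, read in WT cells alone (chr1:144004100-144004399, minus strand), and Nrcam, a neuronal adhesion molecule that was 21.8-fold higher in KI cells (chr12:44328635-44328934, plus strand), both from RefSeq on GRCm38.p6.
Rgs2: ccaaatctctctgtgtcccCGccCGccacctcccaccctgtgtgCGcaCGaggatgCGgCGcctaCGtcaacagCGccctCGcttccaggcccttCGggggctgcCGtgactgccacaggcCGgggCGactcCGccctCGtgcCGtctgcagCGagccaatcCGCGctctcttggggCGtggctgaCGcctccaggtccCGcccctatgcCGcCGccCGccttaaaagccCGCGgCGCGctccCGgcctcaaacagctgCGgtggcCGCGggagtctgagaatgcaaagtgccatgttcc
Nrcam: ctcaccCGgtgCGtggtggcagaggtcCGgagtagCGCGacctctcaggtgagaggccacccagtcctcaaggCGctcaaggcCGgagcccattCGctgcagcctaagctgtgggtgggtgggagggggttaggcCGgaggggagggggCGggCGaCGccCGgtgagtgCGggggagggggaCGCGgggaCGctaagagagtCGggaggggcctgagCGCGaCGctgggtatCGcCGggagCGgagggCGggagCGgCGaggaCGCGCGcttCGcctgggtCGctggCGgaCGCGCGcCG
Rgs2 has 33 CG dinucleotides in its 300 bases and Nrcam 37, both well above the medians of their sets. Other windows that were read held 17 for the lower gene Gas6 and 32 for the higher gene Adcy2. Those of the higher genes Magea5 and Cntn3 held 0, but lay 1592 and 108434 bases from the listed gene start. The median was 13 for the 874 lower genes with a window, 10 for the 288 higher genes and 22 for the 8853 genes that were not called, and 7 over all 32851 windows. For the 16 tested genes of the DNA methylation machinery, 0 were called in either direction, beside 12.2% of all tested genes. By the adjusted p alone, 4 of the 16 were higher and 5 lower. A part of DNA methylation in these results was not tested.

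The 5 lower genes with the largest fall in mean CPM, namely Col3a1, Spp1, Bgn, Col1a2 and Col12a1, all encode matrix proteins. Biglycan (Bgn), a small proteoglycan that binds collagen, was at 1181, 1117 and 1147 CPM in WT and 7.87, 9.64 and 10.6 CPM in KI libraries, 122-fold lower (log2 fold change -6.93 ± 0.14, adjusted p = 7.21e-11). Col1a1, a chain of type I collagen, was at 392, 344 and 365 CPM in WT and 3.6, 4.74 and 3.78 CPM in KI libraries, 90.9-fold lower, while Col1a2, the other chain of the same protein, was at 1561, 1488 and 1548 CPM in WT and 574, 676 and 630.1 CPM in KI libraries, 2.45-fold lower. Col3a1, the collagen of pliable tissue, was at 2257, 2284 and 2406 CPM in WT and 769.6, 821 and 857 CPM in KI libraries. In all 4 genes the KI libraries lay wholly below the WT libraries.

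For collagens, 14 of 26 tested members (53.8%) were lower and 4 (15.4%) higher, with a median log2 fold change of -1.20. Col12a1 (-5.67) and Col5a2 (-1.71) were among the lower ones, and the higher ones included the basement membrane chain Col4a6, at 0.144, 0.368 and 0.0913 CPM in WT and 6.26, 6.11 and 6.13 CPM in KI libraries. For matrix glycoproteins and proteoglycans, 20 of 42 tested members (47.6%) were lower and 2 (4.76%) higher, with a median log2 fold change of -0.89. The list held osteoglycin (Ogn, -5.81), matrix Gla protein (Mgp, -3.01), osteopontin (Spp1, -1.68) and the anti-adhesive thrombospondin 1 (Thbs1, -2.03) among the lower genes. Fibronectin (Fn1) was the most abundant member, at 4866, 4710 and 5378 CPM in WT and 2604, 2767 and 2740 CPM in KI libraries, and its log2 fold change of -0.88 ± 0.10 missed the threshold. Metalloproteases and their inhibitors had 13 lower and 1 higher of 27 tested members, among the lower ones the aggrecan-cutting Adamts5 (-4.14), Adamts12 (-4.96) and Adamts2 (-3.90), which trims procollagen. Of 10 tested laminins, 2 (20%) were lower (Lama4, -6.84, and Lama1, -4.74) and 0 higher.

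Markers of fibroblasts and mesenchymal progenitors moved with the matrix genes, with 13 lower (65%) and 0 higher of 20 tested and a median of -1.74. The PDGF receptor gene Pdgfrb was at 295, 262 and 239.8 CPM in WT and 30.6, 36.7 and 33.1 CPM in KI libraries (log2 fold change -2.99 ± 0.11, adjusted p = 3.86e-09). Decorin (Dcn), a small proteoglycan, was at 23.3, 22.3 and 25.1 CPM in WT and 5.87, 4.21 and 4.69 CPM in KI libraries, and the progenitor surface gene Cd34 at 65.1, 57.4 and 64.2 CPM in WT and 10.8, 11.8 and 13.2 CPM in KI libraries. Lum had 0 KI reads and 0.192, 0.184 and 0.319 CPM in WT, too little for the test, and Thy1 was not analysed here. The smooth muscle actin gene Acta2, a marker of myofibroblasts, was at 969, 731 and 868 CPM in WT and 308, 380.1 and 346 CPM in KI libraries (log2 fold change -1.31 ± 0.12). The part of a fibroblast-like fraction of the cells in the matrix results was not tested.

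**Figure D3:**
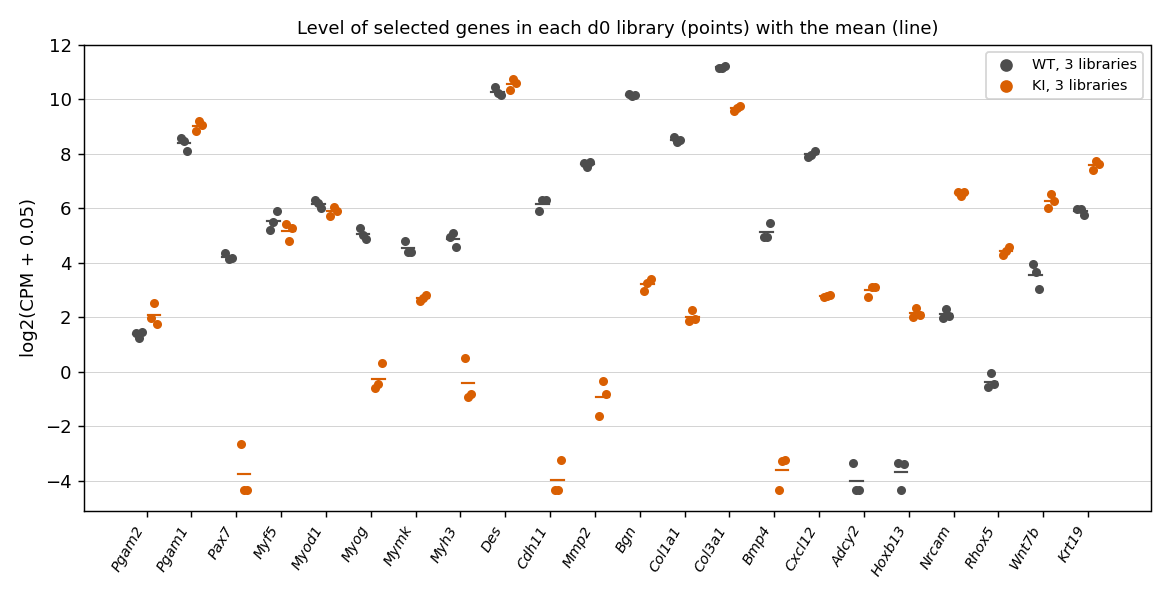
Level of 22 selected genes in each d0 library (y axis, log2 of CPM + 0.05), with WT libraries in grey, KI libraries in orange and the mean of 3 as a line. Points at the bottom are libraries with 0 reads, as in KI libraries for Cdh11, Bmp4 and Pax7 and in WT libraries for Adcy2 and Hoxb13, while Des, Myod1 and Myf5 overlap.

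Secreted signals and their receptors were lower in several pathways. In the Wnt pathway, where ligands act through Frizzled receptors and secreted antagonists hold them back, 19 of 39 tested members were lower and 2 higher, with a median log2 fold change of -0.85. The antagonist Sfrp1 was at 12.9, 12 and 12.2 CPM in WT and 0.0554, 0 and 0 CPM in KI libraries, and Dkk3, of the Dickkopf family, at 17.1, 17.8 and 18.8 CPM in WT and 0, 0 and 0.0572 CPM in KI libraries. Among ligands, Wnt10a was lower, at 30.4, 26.1 and 24.1 CPM in WT and 3.55, 2.79 and 3.49 CPM in KI libraries, and Wnt7b was higher, at 15.4, 12.5 and 8.26 CPM in WT and 65.1, 91.7 and 78.1 CPM in KI libraries (log2 fold change 2.70 ± 0.20). For each of these 4 genes the KI and WT libraries did not overlap.

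In the BMP and TGF-beta pathways, 11 of 40 tested members (27.5%) were lower and 2 (5%) higher, with a median log2 fold change of -0.61. Bmp4, a ligand that opposes myogenesis and drives bone formation, was at 31.1, 31.1 and 44.3 CPM in WT and 0, 0.0527 and 0.0572 CPM in KI libraries (2294 against 2 reads, ratio 999, 95% exact counting interval 276 to 8252). Bmp4 overlaps Gm15217 and Gm15222 on the other strand, and the sources used here do not say whether reads were counted by strand, which holds for all overlapping genes. The inhibitory SMAD gene Smad6 (-3.08), the BMP-binding Bmper (-2.94) and the activin subunit gene Inhbb (-3.64) were lower as well. The stress-induced ligand Gdf15 was higher, at 51.7, 45.8 and 61.8 CPM in WT and 111, 135 and 157 CPM in KI libraries.

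FGF genes were called in both directions, with 8 lower (28.6%) and 6 higher (21.4%) of 28 tested, or 3 higher without WT replicate 3. The receptor Fgfr4, a myoblast surface protein, was at 6.73, 4.46 and 5.98 CPM in WT and 0, 0 and 0.229 CPM in KI libraries, and Fgf2, a mitogen of myoblasts, at 10.4, 14.1 and 13.3 CPM in WT and 0.665, 0.685 and 0.458 CPM in KI libraries. Fgfr1, the most abundant receptor of the list, did not pass the threshold at -0.46. In the IGF system, 6 of 19 tested members (31.6%) were lower and 3 (15.8%) higher. Igf1, the growth factor, was at 4.8, 6.53 and 6.62 CPM in WT and 0, 0.211 and 0 CPM in KI libraries, and the RNA-binding protein gene Igf2bp3 at 1.2, 2.11 and 1.73 CPM in WT and 10.4, 10.005 and 13.7 CPM in KI libraries. The KI and WT libraries of these 4 called genes did not overlap, and Fgf2 overlaps Nudt6 on the other strand.

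Chemokines and cytokines had 17 lower (37.0%) and 0 higher of 46 tested members. Cxcl12, the ligand of CXCR4, was at 234, 249 and 277 CPM in WT and 6.65, 6.85 and 7.04 CPM in KI libraries, 37-fold lower (log2 fold change -5.21 ± 0.11, adjusted p = 7.49e-11). The neutrophil attractant Cxcl5 was at 25.9, 31.9 and 37.2 CPM in WT and 4.32, 2.79 and 4.75 CPM in KI libraries, and angiopoietin 1 (Angpt1) at 48.7, 74 and 59.8 CPM in WT and 11, 7.16 and 8.59 CPM in KI libraries. In the Notch pathway, which keeps muscle stem cells quiescent, 4 of 13 tested members (30.8%) were lower and 0 higher. The receptor Notch3 was at 199.9, 206 and 196 CPM in WT and 50.2, 57.9 and 57.4 CPM in KI libraries. The target gene Heyl had a log2 fold change of -2.66. Of axon guidance genes, 17 of 53 tested (32.1%) were lower and 2 (3.77%) higher, and 18 of 54 were lower and 4 higher without KI replicate 3. The netrin receptor Unc5c was at 18.1, 19.5 and 22.5 CPM in WT libraries with 1 KI read in all against 1295 (ratio 1128, 95% exact counting interval 202 to 44574). The ephrin receptor Ephb2 was at 21.5, 17.4 and 17.3 CPM in WT and 0, 0.0527 and 0.0572 CPM in KI libraries.

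**Figure D4:**
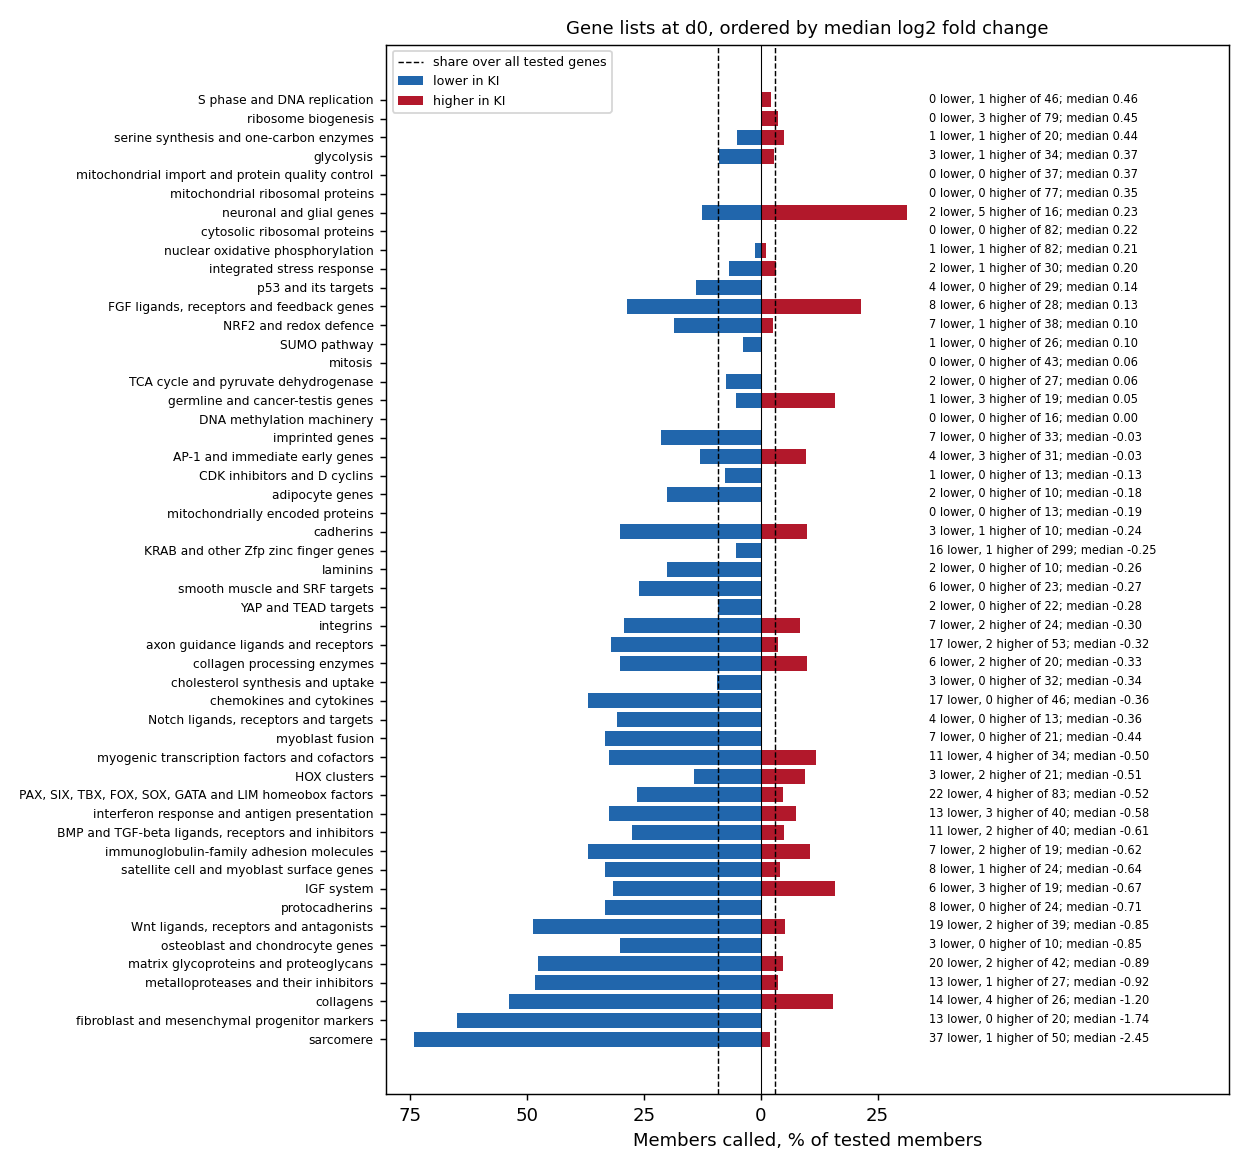
Share of tested members called lower (blue, left) and higher (red, right) in KI cells at d0 for each list with at least 10 tested genes, with counts and median log2 fold changes beside the bars. Dashed lines mark the shares over all tested genes, 9.21% lower and 3.03% higher, and the sarcomere list, with 37 of 50 lower, has the longest bar.

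The increases with the largest fold changes included genes known from other tissues. Adcy2, an adenylyl cyclase of brain, was at 0.048, 0 and 0 CPM in WT and 6.65, 8.58 and 8.7 CPM in KI libraries, 1 against 435 reads (ratio 499.6, 95% exact counting interval 89.2 to 19776). Hoxb13, a homeobox gene of the hindmost body segments, was at 0.048, 0 and 0.0456 CPM in WT and 4.04, 5.0 and 4.18 CPM in KI libraries (log2 fold change 6.89 ± 0.44, adjusted p = 2.64e-07). Nrcam was at 3.94, 4.87 and 4.15 CPM in WT and 97.2, 87.3 and 98 CPM in KI libraries, and its relative Cntn3, a contactin, at 4.84 on the log2 scale. None of these genes had a WT library near the KI level, a separation that choosing genes by fold change favours.

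Genes of testis and of early embryos were among them. Rhox5, an X-linked homeobox gene of testis and placenta, was at 0.625, 0.919 and 0.684 CPM in WT and 19.4, 21.9 and 23.8 CPM in KI libraries (log2 fold change 4.85 ± 0.19). The melanoma antigen family gene Magea5 was at 0.0961, 0.184 and 0.137 CPM in WT and 10.7, 11.8 and 11.4 CPM in KI libraries, and it overlaps Magea2 on the other strand, so reads of the pair cannot be told apart without strand. Of 19 tested germline and cancer-testis genes, 3 (15.8%) were higher and 1 (5.26%) lower. Of 6 tested pluripotency genes, 3 were higher and 0 lower, all under 3 CPM in every library. They were Lin28b (3.96), Dppa4 (2.61) and Dppa2 (2.05), which were named after their values were seen. The markers of pluripotent cells had too few reads for any to be tested. They summed to 0.336 to 0.456 CPM in WT and 0.0554 to 0.158 CPM in KI libraries, too low to read a direction from. Of these markers, Nanog had 0 KI reads and Pou5f1 was not analysed. Cyp11a1, the enzyme that starts steroid synthesis, was at 2.93, 4.09 and 3.01 CPM in WT and 59.3, 79.9 and 62.2 CPM in KI libraries. Of 7 tested blood cell genes, 2 were higher and 0 lower: Ikzf1, a lymphocyte transcription factor (3.80), and alpha-globin (Hba-a1, 3.03), whose near-identical copy makes its count uncertain.

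Hormone genes of the endocrine pancreas were read in KI libraries and hardly in WT. Ins2, one of the mouse insulin genes, was at 0.048, 0.046 and 0.137 CPM in WT and 5.21, 4.21 and 12.1 CPM in KI libraries (log2 fold change 6.42 ± 0.61, adjusted p = 7.64e-06). Ins1, the other insulin gene, was at 0, 0 and 0.0456 CPM in WT and 1.05, 1.37 and 2.81 CPM in KI libraries, and Iapp, which encodes the peptide amylin, at 0, 0.138 and 0 CPM in WT and 1.27, 1.63 and 2.98 CPM in KI libraries. The secretory granule genes Chga and Scg2 were at 0.886, 1.16 and 1.95 CPM and 0.942, 1.16 and 1.95 CPM in the KI libraries. In all 5 genes KI replicate 3 had the highest level, and without it Ins2 was still higher, with a log2 fold change of 5.82 (adjusted p = 9.47e-07). Apart from Ins2, these genes were named after their values were seen. Of 7 tested genes of pancreas, 4 were higher and 1 lower (Ctrb1, -4.49), and without KI replicate 3 the count was 4 higher and 2 lower of 8. Among the 4 beta cell markers, the transcription factor gene Mafa was at 5.72, 5.15 and 2.92 CPM in WT and 7.53, 8.0 and 8.19 CPM in KI libraries and not called. The summed level of these 4 markers was 3.10 to 5.77 CPM in WT and 13.6 to 23.2 CPM in KI libraries. A part of RNA from other cells in these levels was not tested.

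Among abundant genes, increases were of at most a few fold. Tm4sf1, a tetraspanin-like surface protein, was at 405, 336 and 268 CPM in WT and 597, 789.7 and 746 CPM in KI libraries, and mesothelin (Msln), a surface glycoprotein of mesothelium, at 237, 226 and 252 CPM in WT and 509, 578 and 547 CPM in KI libraries. The simple-epithelium keratin gene Krt19 was at 63.3, 63.8 and 53.4 CPM in WT and 171, 212 and 200.2 CPM in KI libraries (log2 fold change 1.69 ± 0.11). Add2, a membrane skeleton adducin, was at 87.6, 92.5 and 53 CPM in WT and 282, 347 and 323 CPM in KI libraries, and the aldehyde dehydrogenase gene Aldh3a1 at 50.5, 46.1 and 43.2 CPM in WT and 153, 199 and 181 CPM in KI libraries. The neuronal tubulin gene Tubb3 was at 121, 109.99 and 54.8 CPM in WT, lowest in replicate 3, and 189, 266 and 223 CPM in KI libraries (log2 fold change 1.25 ± 0.23). In each of these genes all KI libraries lay above all WT libraries, and without WT replicate 3 the calls of Tubb3 (0.97) and Tm4sf1 (0.94) were lost. Markers of epithelium summed to 55.7 to 64.9 CPM in WT and 173 to 214 CPM in KI libraries, mostly from Krt19. Of the 3 tested epithelial markers, 2 were higher, while the cadherin gene Cdh1 was lower, with 92 WT and 2 KI reads. Epcam and Krt18 were not analysed. Neuron markers summed to 55.3 to 121 and 190 to 267 CPM, mostly from Tubb3, and only 1 of them was tested. These sums thus add little to the single genes, and the part of such cells in the increases was not tested.

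Glycolysis genes were called at about the share of all genes. Of 34 tested, 3 were lower (8.82%) and 1 higher (2.94%), with a median of 0.37 against -0.02 for all genes. The lactate exporter gene Slc16a3 was at 55.1, 60.2 and 43.6 CPM in WT and 3.93, 4.16 and 4.41 CPM in KI libraries (-3.67), Eno2 (neuronal enolase) was lower at -1.06, and Aldoc (aldolase C) was higher at 1.11 (0.98 and not called without WT replicate 3). Gapdh and Pkm, the most abundant of those not called, were at 0.51 and 0.24. Nuclear genes of oxidative phosphorylation had 1 lower and 1 higher of 82, mitochondrial ribosomal proteins 0 of 77 in either direction (median 0.35), and the 13 mitochondrially encoded proteins 0 (median -0.19). By the adjusted p alone, with no fold threshold, 18 glycolysis genes were higher and 5 lower, and 49 of the 77 mitochondrial ribosomal protein genes were higher and 1 lower.

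Ribosome biogenesis genes had 3 higher and 0 lower of 79, with a median of 0.45. By the adjusted p alone, 62 of the 79 were higher and 0 lower, and 32 of 46 genes of S phase were higher and 0 lower, beside 2834 higher and 3330 lower of all 13920 tested genes. The 3 were Pes1, Nop2 and Nhp2, factors of ribosomal RNA maturation, with log2 fold changes of 1.01 ± 0.11, 1.03 ± 0.13 and 1.05 ± 0.13, and all 3 calls were lost without WT replicate 2 (Pes1 0.95, Nop2 0.98 and Nhp2 0.96) and without KI replicate 2 (0.93, 0.93 and 0.95), and those of Pes1 (0.97) and Nop2 (0.93) also without WT replicate 3. Genes of S phase had a median of 0.46, with 1 of 46 called higher (Cdc6, which loads the replicative helicase, 1.03, not called at 0.82 without WT replicate 3 or at 0.96 without KI replicate 2), and genes of mitosis 0 of 43 and a median of 0.06. In the SUMO pathway, 1 of 26 tested genes was lower, the SUMO protease gene Senp7 (-1.01, with calls lost at -0.97 to -0.93 without WT replicate 2, WT replicate 3 or KI replicate 2). Of 33 tested imprinted genes, 7 were lower (21.2%) and 0 higher, beside 9.21% and 3.03% of all tested genes. The growth-restraining noncoding RNA H19 was at 760.2, 671 and 522 CPM in WT and 68.2, 83.8 and 81.6 CPM in KI libraries (log2 fold change -3.06 ± 0.15).

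Called genes lay on all chromosomes, and some neighbours were called together. The share of tested genes called lower was from 6.8% on chromosome 12 to 14.2% on chromosome 13, and the median log2 fold change of a chromosome from -0.30 (chromosome 13) to 0.16 (chromosome 11). In running windows of 51 adjacent tested genes, the lowest median was -0.76, on chromosome 8 (85260392 to 94782427), where 16 genes were lower and 0 higher. The highest was 0.52, on chromosome 11, a value that overlapping windows shared. The first of them (3187360 to 5803733) held 2 lower and 5 higher genes and ended at Pgam2. Later ones with the same median ran past that gene, so the end of the first window marks no boundary. In 6 places, at least 5 adjacent tested genes were all lower in KI cells, and no such run was of higher genes. With 4 adjacent genes as the limit there were 11 runs. On chromosome 11 (67078300 to 67688990, GRCm38) the myosin genes Myh3, Myh1, Myh4 and Myh8 and the neighbouring cytoskeletal gene Gas7 had log2 fold changes of -5.23, -6.81, -7.24, -4.93 and -5.37. Also on chromosome 11 (109669749 to 110251776), the kinase-like Fam20a and the lipid transporter genes Abca8b, Abca8a, Abca9 and Abca6 had -3.33, -1.55, -4.68, -4.03 and -3.37.

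On chromosome 6 (124493113 to 124636085), 5 genes of the complement proteases C1r and C1s were lower (C1rl, C1ra, C1s1, C1rb and C1s2, from -1.11 to -3.16), where near-identical copies make single values uncertain. On chromosome 5 (104079111 to 104505819), the run held the matrix protein genes Sparcl1 (-7.89), Dmp1 (-5.37) and Spp1 (-1.68), then Gm42793, which overlaps Spp1, and Pkd2 (-1.12), a calcium channel gene. The run of 6 genes on chromosome 8 (92336668 to 93969388) went from Gm21817 (-1.29) over the homeobox gene Irx5 (-1.10), Mmp2 (-8.58), the lipid enzyme gene Lpcat2 (-6.84) and the noradrenaline transporter gene Slc6a2 (-5.01) to the G-protein gene Gnao1 (-1.08). On chromosome 19 (34241090 to 34527474) it was Acta2, the death receptor gene Fas (-2.40), the cholesterol hydroxylase gene Ch25h (-2.98), the overlapping Gm26902 and the lysosomal lipase gene Lipa (-1.02). In these runs, 5 genes lost their calls in some leave-one-out fits: Gm21817 (without WT replicate 2 or 3, or KI replicate 2 or 3, at -1.37 to -0.95), C1rl (without WT replicate 3, at -0.996), C1rb (without WT replicate 1, or KI replicate 1 or 3, at -1.41 to -1.06), Gm26902 (without KI replicate 1 or 2, at -1.27 and -1.33) and Lipa (without WT replicate 3 or KI replicate 1, at -0.97 and -0.97). Without such a gene the run on chromosome 8 has 5 genes and those on chromosomes 6 and 19 fewer than 5.

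The d0 genes were then read in the d4 libraries, where FPKM were scaled apart from d0 and the 2 days share no library. Of the 1282 genes lower at d0, 748 (58.3%) had all 3 KI libraries below all 3 WT libraries at d4, against 31.6% of all tested genes. Of the 422 genes higher at d0, 202 (47.9%) had all KI libraries above all WT libraries at d4, against 30.0% of all tested genes. The opposite position was taken by 177 of the lower and 71 of the higher genes. Myog stood at a mean of 844 FPKM in WT and 76.5 in KI cells at d4, and Myh3 at 552 and 69.3. Of 50 tested sarcomere genes, 48 had KI below WT at d4 and 1 above. Cdh11 was listed at 7.78 FPKM in WT and at 0 in KI cells, and Nrcam at 0.0506 and 0.628. In contrast, Pgam2 itself was at 128 FPKM in WT and 10.6 in KI cells at d4, and the complement gene C1s1 at 7.39 and 14.9, each opposite to its direction at d0. Ogn, 56.1-fold lower at d0, overlapped at d4 with 69.7 and 76.2 FPKM.

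**Figure D5:**
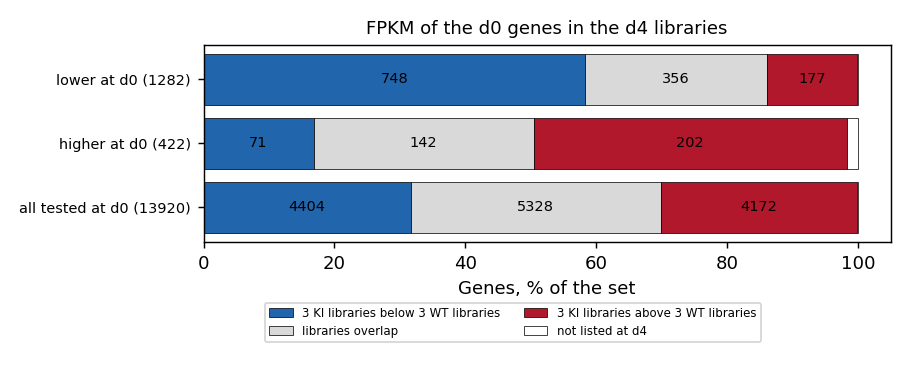
Position of the d4 libraries in FPKM for genes lower at d0, genes higher at d0 and all genes tested at d0 (x axis, % of the set, with gene counts on the bars). In the lower set 748 genes had all KI libraries below all WT libraries at d4 and 177 all above, and in the higher set 71 and 202.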

How the data were processed

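RNA was extracted with Trizol, poly(A) RNA was selected with oligo-T beads, and paired-end reads were sequenced on an Illumina instrument. The authors deposited raw read counts per gene and FPKM, a measure per length. The build was mm10, and the submitters' processing notes name DESeq2 1.20.0, while none of the sources used here names the aligner or the counter, or says whether strand was used. The study's methods state 2 biological replicates per condition, whereas the labels give 3 libraries.

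Counts of the 6 d0 libraries (17695434 to 21412560 reads in genes) were tested as deposited, with edgeR 4.0.16 in R 4.3.3 (filterByExpr, TMM, quasi-likelihood test, Benjamini-Hochberg adjustment), and the code was tested on simulated data. A gene was called when its adjusted p was below 0.05 and its log2 fold change exceeded 1 in size, and log2 fold changes are KI minus WT with their SE. The deposited FPKM served only for levels per length and for d4, where a gene was placed by whether the libraries overlapped. Exact counting intervals and floors of 3 reads cover counting error only. Sequences came from RefSeq (GRCm38.p6, windows for 10015 of 13920 tested genes) and, for Pgam2, from GENCODE M21.

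Named were the study's own genes, the 15 largest fold changes in each direction among called protein-coding genes that did not overlap and reached a mean of 5 CPM, the 10 largest CPM differences in each direction, genes with 0 reads in 1 genotype and at least 5 CPM in the other, up to 4 called members (same minimum) and 3 members not called of each list, the 5 non-polyadenylated genes with the most reads, and genes in runs of adjacent called genes. Other genes in the text were chosen after their values were seen. Gene lists, samples and rules were chosen with earlier results of these data known. In 24 rows dates stood in place of symbols, and all 24 were restored from the gene identifiers. The authors' fold changes and p-values were not used, nor were 3 count columns of the WT d4 table that carry KI names. Alternatives are given in the closing section.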

Additional observations from a re-analysis of the deposited data

Results flagged for a closer look

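Some genes had all KI libraries on one side of all WT libraries at d0 and on the other side at d4. Over all 13920 tested genes, 1101 were above WT at d0 and below it at d4, and 1018 the reverse. Among the genes of the naming rule these were 36 and 44, of which 5 and 23 were called at d0. Values are given for the called ones, for Pgam2 and for other such genes that the text names. The difference between the days was not tested, since the d4 values are FPKM scaled apart from d0. Each is the log2 ratio of mean FPKM, KI over WT, at d4, beside the edgeR log2 fold change at d0. Pgam2, the edited glycolytic enzyme, stood at -3.59 at d4 and 0.76 at d0. Complement protease genes were above WT at d4 and below at d0: C1ra at 0.97 and -2.51, C1rb at 1.74 and -1.39, C1rl at 1.34 and -1.11, C1s1 at 1.01 and -2.59, and C1s2 at 1.07 and -3.16. The lipid transporter genes of chromosome 11 did the same, with Abca8a at 0.49 and -4.68, Abca8b at 1.22 and -1.55, and Abca9 at 0.88 and -4.03.

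Secreted and surface proteins were among the others. The chemokine gene Cxcl5 was at 2.35 at d4 and -3.00 at d0, angiopoietin 1 (Angpt1) at 0.89 and -2.77, decorin (Dcn) at 0.88 and -2.26, and thrombospondin 1 (Thbs1) at 0.35 and -2.03. The adhesion molecule gene Alcam was at 1.22 at d4 and -1.81 at d0, the integrin gene Itgb8 at 0.54 and -1.26, the glutamate receptor gene Grik2 at 1.69 and -1.36, and the channel gene Pkd2 at 0.19 and -1.12. The peptide transporter gene Tap2, of antigen presentation, was at 0.73 and -1.89.

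Inside the cell, the cytosolic isocitrate dehydrogenase gene Idh1 was at 0.15 at d4 and -1.12 at d0, the SUMO protease gene Senp7 at 0.21 and -1.01, and the p53 targets Sesn1 and Trp53inp1 at 0.61 and 0.34 against -1.32 and -1.30. The zinc finger genes Zfp395 and Zim1 were at 0.19 and 1.31 at d4 against -1.65 and -1.38 at d0. Called genes of the naming rule that were above WT at d0 and below it at d4 numbered 5. The stress ligand Gdf15 was at -1.92 at d4 and 1.34 at d0, the receptor gene Tnfrsf12a at -1.31 and 1.02, the keratin gene Krt19 at -0.71 and 1.69, the neurofilament gene Nefm at -0.59 and 1.49, and the ribosomal RNA methyltransferase gene Nop2 at -0.10 and 1.03. Further genes named in the text were above WT at d0 and below it at d4: the actin-binding protein gene Xirp1 at -2.64 and 1.83, the linker histone gene Hist1h1e at -3.04 and 3.67 (1.02 and not called at d0 without KI replicate 3), alpha-actinin 3 (Actn3) at -1.18 and 0.50, the beta cell factor gene Mafa at -0.95 and 0.78, and Gapdh at -0.34 and 0.51. The transcription factor gene Sox4, at 0.40 and -1.39, and the receptor gene Fgfr1, at 0.10 and -0.46, were the reverse. Of these, Xirp1, Hist1h1e and Sox4 were called at d0.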

How the results depend on the processing

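The counts of 422 higher and 1282 lower genes stayed within 1.5 times under DESeq2 (453 and 1294), other size factors, no filter on low counts (530 and 1569), a minimum of 1 CPM (371 and 1150) and removal of non-polyadenylated genes before normalization (417 and 1286). With no fold threshold they were 2834 and 3330, and in a test against an absolute log2 fold change of 1 they were 179 and 786. Leaving out each library in turn gave 406 to 517 higher and 1243 to 1423 lower genes. Of the 353 named genes that were tested, 2 to 13 calls were lost in a leave-one-out fit, most with 13 without WT replicate 3, and no direction was reversed. Of 114 counts of called list members, 8 to 16 moved by over 1.5 times in a leave-one-out fit, many of them counts near 0. Genes called at d0 and on the same side at d4 numbered 748 lower and 202 higher, 1465 and 951 with no fold threshold, and 112 higher with the test against a fold change. Same-numbered libraries deviated from their group means with correlations of -0.36, -0.13 and 0.05, and the other pairs with -0.20 to 0.31. With 3 libraries a group, these values cannot decide whether libraries were paired, and the labels name no pairing. The fit with the replicate block called 408 higher and 1249 lower genes. In that fit the calls of Rn7sk (log2 fold change 3.62), Gm21817 (-1.28) and C1rb (-1.37) were lost. Genes of a few reads are limited by depth: a gene with no read in the 3 KI libraries has a bound, not a fold change. Since KI cells are 1 line, no alternative separates the substitution from the clone.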

Other observations

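Developmental transcription factors were called lower more often than they were called higher. Of 83 tested factors of the PAX, TBX, FOX, SOX, GATA, LIM homeobox and related families, 22 were lower (26.5%, beside 9.21% of all tested genes) and 4 higher, with a median log2 fold change of -0.52. Prrx1, a homeobox factor of limb mesenchyme, had a mean of 205 CPM in WT and 88.0 CPM in KI libraries, Sox4 of 99.0 and 37.8 CPM, and the Iroquois factor Irx3 of 37.0 and 7.29 CPM. The hedgehog effector Gli2 had 2.28 CPM in WT and no read in KI libraries. Foxa2, a factor of endoderm, was among the higher ones, at 0.186 CPM in WT and 3.003 CPM in KI. The HOX clusters had 3 lower (14.3%) and 2 higher (9.52%) of 21 tested genes, and 2 lower and 3 higher of 22 without KI replicate 3. KRAB and other Zfp zinc finger genes had 16 lower of 299 (5.35%, under the share of all genes; 9 without WT replicate 2) and 1 higher, with a median of -0.25.

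Interferon response and antigen presentation genes had 13 lower (32.5%) and 3 higher of 40 tested, beside 9.21% and 3.03% of all tested genes. The tapasin gene Tapbp, which loads peptides on MHC class I, had 82.0 CPM in WT and 36.5 CPM in KI libraries, while the antiviral genes Rsad2 and Oasl1 were higher, with log2 fold changes of 2.78 and 2.15. Of 38 tested NRF2 and redox genes, 7 (18.4%) were lower (4 without WT replicate 3) and 1 (2.63%) higher. The lower ones included the extracellular superoxide dismutase gene Sod3 (38.6 to 3.08 CPM) and the plasma glutathione peroxidase gene Gpx3 (46.4 to 8.90 CPM). Protocadherins, which set contacts between cells, had 8 lower (33.3%) and 0 higher of 24 tested genes.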
